A study of Mus musculus with 8 samples.

Results

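A set of 10 genes that mark stromal progenitor cells or serve the niche of blood stem cells was followed in whole bone: Lepr, Kitl, Ebf3, Foxc1, Pdgfra, Pdgfrb, Angpt1, Vcam1, Ly6a and Nes. They were found by symbol and are 10 of the 55421 genes in the deposited table. The DoxoR group was 4 mice injected once into the peritoneum with doxorubicin at 10 mg/kg, an anthracycline chemotherapy drug that damages DNA, and the CTRL group was 4 mice given saline by the same route. All 8 were male wild-type C57BL/6 mice, 15 weeks old at injection and assigned at random, and their bones were taken 30 days later. Each library holds polyadenylated RNA of both tibiae and femurs of 1 mouse, after the ends had been cut off and the marrow spun out.

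Most stroma of adult mouse marrow is a network of perivascular reticular cells that carry the leptin receptor and secrete CXCL12. These cells make stem cell factor (Kitl) and angiopoietin-1 (Angpt1), display the adhesion molecule VCAM1, and depend on the transcription factors EBF3 and FOXC1. The PDGF receptors, Ly6a (Sca-1) and Nes (nestin) are used to sort stromal progenitors, but each is also made by other cells: pericytes and fibroblasts for the PDGF receptors, vessel and blood progenitor cells for Ly6a, vessel wall and muscle cells for Nes.

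The 8 libraries held 23699525 to 35747083 counts, and the 10 genes had between 151 and 20640 counts per library, so the number of mice limits the precision more than counting error does. Blood cell RNA remained after the spin: the summed level of 11 neutrophil genes was 10466 to 21485 CPM (counts scaled to a common library size) in DoxoR and 12953 to 23011 CPM in CTRL bones, beside 5190 to 17667 CPM in DoxoR and 5005 to 12385 CPM in CTRL bones for 12 osteoblast genes. The reticular cell markers were present too, with 18 genes summing to 2556 to 3752 CPM in DoxoR and 2831 to 4173 CPM in CTRL bones. CTRL 3 stood apart, with skeletal muscle genes at 0.565% of its counts and between 1.79% and 3.65% in the other 7 libraries. It lay at 1 end of the first principal component (34.3% of the variance) and DoxoR 1 at the other, so values are also given without these libraries where that matters.

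None of the 10 genes passed edgeR's quasi-likelihood test at an adjusted p of 0.05, and neither did any other gene (0 of 17035 tested, or 0%). Angpt1 was lower and Ly6a higher in DoxoR bones at an unadjusted p under 0.05. That is 2 of the 10 genes, beside 913 of all tested genes (5.36%) at such a p in either direction. The log2 fold change (DoxoR over CTRL) was above 0 for 5 of the 10 genes and below 0 for 5, with a median of −0.05, beside 57.2% above and 42.8% below 0 and a median of 0.04 over all tested genes. The median size of the log2 fold change, whatever its sign, was 0.31 for the 10 genes and 0.15 for all tested genes. In 0 of the 10 genes did the 4 DoxoR libraries lie wholly to 1 side of the 4 CTRL libraries, beside 3.59% of all tested genes (1.64% higher and 1.95% lower). With library size as the only scaling, Ly6a alone of the 10 had groups that did not overlap, beside 2.62% of all tested genes under that scaling. In bulk RNA a lower value can come from fewer cells of a type or from less RNA per cell, and the 2 cannot be told apart.

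**Figure D1:**
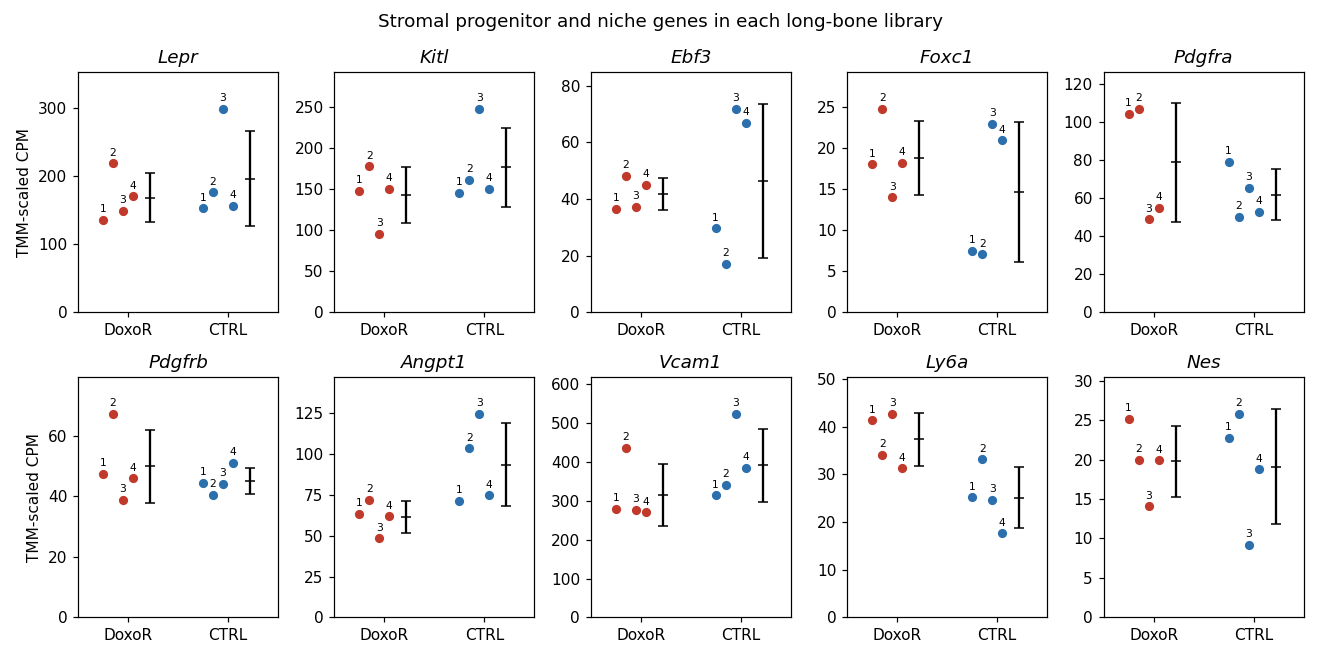
Level of each of the 10 genes in each library (TMM-scaled CPM), DoxoR left and CTRL right, with the mean and SD of 4 mice. The groups overlap for all 10 genes, and CTRL 3 is the highest library for 5 of them.

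Among the factors that reticular cells offer to blood stem cells, Angpt1 had the smallest p. It encodes angiopoietin-1, the ligand of the receptor TEK on endothelial and blood stem cells, and lies at chr15:42424723-42676977 (GRCm38, minus strand). Angpt1 measured 63.3, 72.0, 48.4 and 61.8 CPM in DoxoR 1 to 4, against 71.2, 103, 125 and 74.5 CPM in CTRL 1 to 4. All DoxoR libraries but DoxoR 2 lay below the lowest CTRL library, and CTRL 2 and CTRL 3 were well above the rest. Its mean was 61.4 ± 9.74 CPM in DoxoR and 93.4 ± 25.3 CPM in CTRL bones (SD, n = 4 each). This gave a log2 fold change of −0.61 ± 0.20 (SE; 95% interval −1.04 to −0.17), a fold of 0.657, with an unadjusted p of 0.0114 and an adjusted p of 0.840 in edgeR. By that p, Angpt1 ranked 231 of 17035 genes.

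Platelets and their precursors also carry angiopoietin-1, and megakaryocyte genes leaned in the same direction, though 0 passed an adjusted p of 0.05 in edgeR. All 10 genes of a megakaryocyte list lay below 0, beside 42.8% of all tested genes. The gene lists were chosen with earlier results of these data known. The megakaryocyte list had a median log2 fold change of −0.54. Of its genes, 6 were lower at an unadjusted p under 0.05 in edgeR, beside 3.23% of all tested genes. Groups did not overlap for 3 of them, beside 3.59% of all tested genes. The summed level of the list was 857 to 1364 CPM in DoxoR and 1319 to 2028 CPM in CTRL bones, ranges that overlap. With the mean log level of that list as a covariate, a fit added after the data had been seen, the log2 fold change of Angpt1 was −0.37 with an unadjusted edgeR p of 0.265. That mean was 5.33 to 6.03 in DoxoR and 6.02 to 6.41 in CTRL libraries (log2 CPM), nearly apart, so the fit has little left to separate the list from the treatment, and the 2 cannot be told apart here. Between mice of 1 group, Angpt1 followed the megakaryocyte list loosely (group-centred Pearson r = 0.33 over 8 libraries, 0.21 without CTRL 3) and the reticular list more closely (0.72, and 0.49 without CTRL 3). An antisense gene, Gm17473, covers 14.2% of the Angpt1 exons, and the labels do not say how strand was used in counting. It was low, at 0.767 ± 0.256 CPM in DoxoR and 0.837 ± 0.310 CPM in CTRL bones (SD, n = 4 each); this gene was chosen after looking at its values.

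**Figure D2:**
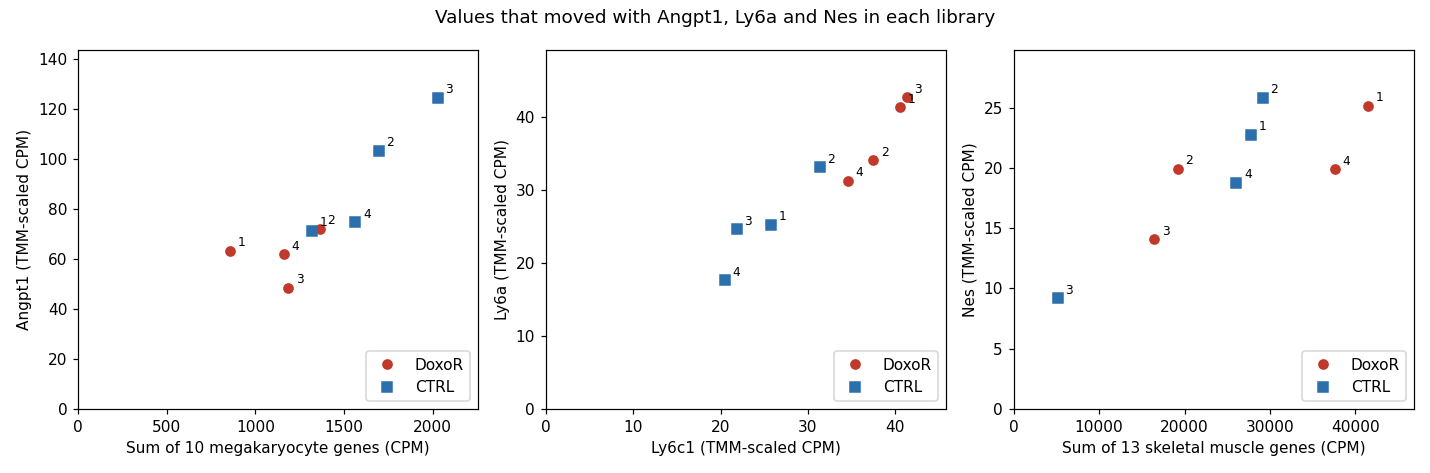
Angpt1 against the sum of 10 megakaryocyte genes, Ly6a against Ly6c1, and Nes against the sum of 13 skeletal muscle genes, all in TMM-scaled CPM. Each point is 1 library, numbered by mouse; DoxoR libraries are circles and CTRL libraries squares. Apart from DoxoR 2, DoxoR libraries lie to the left of all CTRL libraries in the first panel, and all DoxoR libraries lie to the right of them in the second, and CTRL 3 is lowest on both axes of the third.

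Kitl, which encodes stem cell factor, the ligand of the receptor KIT on blood stem cells, lies on chromosome 10. Its start site is shown because it has the only TATA box among the windows available. RefSeq promoter windows of GRCm38.p6, from 250 bases before to 50 bases after a start, were available for 6 of the 10 genes (Lepr with 2 windows, Kitl, Ebf3, Foxc1, Pdgfra and Nes). In the Kitl window, chr10:100015571-100015870 on the plus strand, capitals mark the TATA box TATAAA and the GC box GGGCGG or its reverse complement.
Kitl: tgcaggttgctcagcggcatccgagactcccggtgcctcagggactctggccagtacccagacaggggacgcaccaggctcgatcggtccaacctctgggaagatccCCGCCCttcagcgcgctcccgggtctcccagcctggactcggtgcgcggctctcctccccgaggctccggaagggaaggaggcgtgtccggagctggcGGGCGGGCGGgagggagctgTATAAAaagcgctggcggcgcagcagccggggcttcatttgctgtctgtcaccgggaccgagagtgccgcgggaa
The TATA box, searched on the forward strand, was in 8.32% of all 32851 windows. The GC box, searched on both strands, was in 35.7% of all windows and in 5 of the 7 windows of these genes. Kitl measured 148, 178, 95.7 and 151 CPM in DoxoR 1 to 4, against 145, 162, 248 and 151 CPM in CTRL 1 to 4. DoxoR 3 was the lowest and CTRL 3 the highest library, and the other 6 lay close together. Kitl had a log2 fold change of −0.30 ± 0.22 (SE), with an adjusted p of 0.856 in edgeR, and −0.13 without CTRL 3.

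Lepr, the leptin receptor gene (chr4:101717404-101815352, plus strand), defines the reticular cells. Lepr measured 136, 219, 149 and 170.2 CPM in DoxoR 1 to 4, against 153, 176, 299.6 and 156 CPM in CTRL 1 to 4. CTRL 3 was far above every other library, and DoxoR 2 came next. Lepr had a log2 fold change of −0.22 ± 0.24 (SE), with an adjusted p of 0.873 in edgeR. It was 0.023 without CTRL 3 and 0.15 without CTRL 3 and DoxoR 1, so its sign turned when a single CTRL library was left out. Cxcl12, the chemokine that names these cells and a gene chosen after its values were seen, stood at 1589 ± 357 CPM in DoxoR and 1853 ± 443 CPM in CTRL bones (SD, n = 4 each).

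Vcam1 (chr3:116109949-116129688, minus strand) encodes an adhesion molecule that holds blood cells through the integrins ITGA4 and ITGA9. Vcam1 measured 280.2, 436, 277 and 271 CPM in DoxoR 1 to 4, against 315, 342, 524 and 385 CPM in CTRL 1 to 4. DoxoR 1, 3 and 4 lay close together below all CTRL libraries, while DoxoR 2 was above all of them but CTRL 3. Vcam1 had a log2 fold change of −0.31 ± 0.21 (SE), with an adjusted p of 0.856 in edgeR. Without DoxoR 2 it was −0.53, with an unadjusted p of 0.0232 in edgeR, and without CTRL 3 it was −0.17. With the megakaryocyte covariate it was 0.15. Marrow macrophages also carry VCAM1. A list of 10 resident macrophage genes lay below 0 for all 10, beside 42.8% of all tested genes, and 0 passed an adjusted p of 0.05 in edgeR. The list had a median of −0.37 and sums of 319 to 429 CPM in DoxoR and 377 to 627 CPM in CTRL bones. At an unadjusted p under 0.05 in edgeR, 4 of its genes were lower, beside 3.23% of all tested genes. Vcam1 followed that list between mice of 1 group (group-centred r = 0.81, and 0.68 without CTRL 3). The part of these cells in the Vcam1 values was not tested.

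Dividing each gene by Lepr in the same library, a description chosen after the values were seen, removes a change common to all of them. The Angpt1 to Lepr ratio was 0.370 ± 0.0655 in DoxoR and 0.486 ± 0.0718 in CTRL libraries (SD, n = 4 each). The Kitl to Lepr ratio was 0.857 ± 0.185 in DoxoR and 0.915 ± 0.0608 in CTRL, and the Vcam1 to Lepr ratio 1.87 ± 0.207 in DoxoR and 2.05 ± 0.302 in CTRL. The Cxcl12 to Lepr ratio was 9.41 ± 0.595 in DoxoR and 9.72 ± 1.47 in CTRL (SD, n = 4 each). The groups overlapped for all of these ratios, and the Angpt1 ratio had the widest gap between its means beside its SD.

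**Figure D3:**
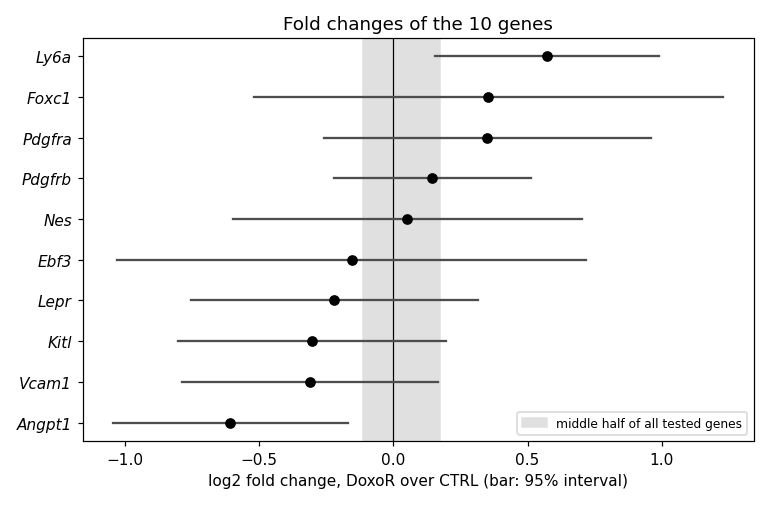
Log2 fold change, DoxoR over CTRL, of the 10 genes with 95% intervals from edgeR. The intervals of Angpt1 (−1.04 to −0.17) and Ly6a (0.16 to 0.99) lie to 1 side of 0 before adjustment, and the other 8 cross it.

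Ebf3 and Foxc1 encode the transcription factors that keep reticular cells from turning into bone or fat. Their promoter windows are shown side by side because the 2 genes had the highest Pearson r of all 45 pairs. Capitals mark the GC box GGGCGG and the EBF core CCCNNGGG, each or its reverse complement. The Ebf3 window is chr7:137314396-137314695 on the minus strand, and the Foxc1 window is chr13:31806396-31806695 on the plus strand.
Ebf3: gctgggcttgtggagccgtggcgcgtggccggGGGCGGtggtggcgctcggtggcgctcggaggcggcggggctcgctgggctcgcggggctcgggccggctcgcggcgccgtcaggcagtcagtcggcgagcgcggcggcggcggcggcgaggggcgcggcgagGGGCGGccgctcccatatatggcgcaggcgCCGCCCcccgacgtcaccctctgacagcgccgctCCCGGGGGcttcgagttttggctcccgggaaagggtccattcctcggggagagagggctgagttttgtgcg
Foxc1: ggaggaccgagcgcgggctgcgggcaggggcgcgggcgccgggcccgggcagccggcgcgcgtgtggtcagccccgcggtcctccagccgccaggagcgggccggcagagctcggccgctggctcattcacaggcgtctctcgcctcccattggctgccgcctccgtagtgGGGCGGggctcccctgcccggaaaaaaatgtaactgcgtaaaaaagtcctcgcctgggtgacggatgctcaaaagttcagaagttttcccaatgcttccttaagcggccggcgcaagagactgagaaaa
The EBF core, searched on both strands, was in the Ebf3 window, in no other of the 7 windows and in 13.7% of all windows. The same core preceded by T and followed by A, a longer EBF motif (0.904% of all windows), and the forkhead motif TGTTTAC (3.65%), both searched on both strands, were in 0 of the 7 windows. The GC content was 77.0% for Ebf3 and 67.3% for Foxc1, beside a median of 52.7% over all windows.

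Ebf3 measured 36.5, 48.2, 37.1 and 44.9 CPM in DoxoR 1 to 4, against 29.6, 17.0, 71.9 and 66.8 CPM in CTRL 1 to 4. The DoxoR libraries were close together, and the CTRL libraries split into a low pair (CTRL 1 and 2) and a high pair (CTRL 3 and 4) on both sides of them. Foxc1 had the same split, with 18.0, 24.8, 13.96 and 18.1 CPM in DoxoR 1 to 4, against 7.46, 7.05, 22.9 and 20.9 CPM in CTRL 1 to 4. The coefficient of variation of Ebf3 was 13.8% in DoxoR and 58.6% in CTRL, and that of Foxc1 was 23.9% in DoxoR and 58.3% in CTRL. The log2 fold change was −0.16 ± 0.39 for Ebf3 and 0.35 ± 0.39 for Foxc1 (SE), with adjusted p of 0.938 for Ebf3 and 0.873 for Foxc1 in edgeR. With such spread among CTRL mice, the 95% interval of Ebf3, −1.03 to 0.72, spans both directions, and its sign turned without CTRL 3 (0.11) or CTRL 4 (0.059). Foxc1 was at 1.13 with the megakaryocyte covariate, and between 0.12 (without CTRL 2) and 0.63 with 1 library left out.

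The same split ran through resident macrophage genes. Between mice of 1 group, both Ebf3 and Foxc1 followed the resident macrophage list (group-centred Pearson r = 0.94 each, and 0.91 each without CTRL 3) more closely than the reticular list (0.68 for Ebf3 and 0.80 for Foxc1). Other marrow lists were followed less closely. For Ebf3, r was 0.19 with neutrophils, 0.47 with erythroid cells and 0.44 with megakaryocytes. For Foxc1, r was 0.05 with neutrophils, 0.39 with erythroid cells and 0.50 with megakaryocytes. The likeness to lists was looked at after the values were seen, and points of a group share their tissue and its share of marrow. Of the macrophage genes, the scavenger receptor gene Cd163 measured 10.8, 17.3, 10.3 and 9.47 CPM in DoxoR 1 to 4, against 22.5, 19.2, 33.2 and 33.8 CPM in CTRL 1 to 4, high in the same CTRL pair. Over 14784 genes with a mean of at least 1 CPM, the nearest to Ebf3 were Podnl1 (0.99), Abhd12 (0.99) and P2rx2 (0.98), and among the nearest to Foxc1 were Adcyap1r1 (0.98) and Gm47798 (0.98), as group-centred r over 8 libraries. With so many genes searched over so few libraries, r this high can arise from the search alone, and it was not tested.

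Pdgfra and Pdgfrb encode the receptors for platelet-derived growth factors, which drive growth and migration of mesenchymal cells. Pdgfra (chr5:75152292-75198215, plus strand) measured 105, 107, 48.8 and 55.0 CPM in DoxoR 1 to 4, against 79.0, 50.02, 65.4 and 52.9 CPM in CTRL 1 to 4. DoxoR 1 and 2 were above every CTRL library, whereas DoxoR 3 and 4 lay among or below them. Its log2 fold change was 0.35 ± 0.27 (SE), with an adjusted p of 0.856 in edgeR. It was 0.17 without DoxoR 1 and 0.14 without DoxoR 2, 0.11 with the mean of neutrophil and erythroid genes as a covariate and 0.096 with the megakaryocyte covariate. Pdgfrb, on chromosome 18, measured 47.4, 67.2, 38.8 and 45.9 CPM in DoxoR 1 to 4, against 44.4, 40.5, 44.1 and 51.1 CPM in CTRL 1 to 4. DoxoR 2 alone stood above the rest. The log2 fold change of Pdgfrb was 0.15 ± 0.16 (SE; 95% interval −0.22 to 0.51), with an adjusted p of 0.875 in edgeR, and −0.062 without DoxoR 2.

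The 2 receptors differed in what they followed between mice. Pdgfra ran opposite to the neutrophil list (group-centred r = −0.85, and −0.96 without CTRL 3), so that it was high where the summed neutrophil genes were low. Pdgfrb followed the endothelial list (0.86, and 0.87 without CTRL 3) and, without CTRL 3, the reticular list (0.91, against 0.64 with it). The 3 genes nearest to Pdgfrb were Cyp2f2 (0.98), Ccl25 (0.97) and Loxl1 (0.96). They are the highest of 14784 genes searched over 8 libraries, so r this high can arise from the search alone, and it was not tested. The ligand genes had log2 fold changes of 0.14 ± 0.13 for Pdgfa, 0.09 ± 0.17 for Pdgfb, −0.08 ± 0.21 for Pdgfc and −0.02 ± 0.27 for Pdgfd (SE), and no unadjusted p of these 4 was under 0.05.

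Ly6a encodes the surface protein Sca-1, which marks blood stem cells, stromal progenitors, fibroblasts and part of the vessel lining, and is raised by interferon. Ly6a (chr15:74994877-74998031, minus strand) measured 41.3, 34.1, 42.7 and 31.3 CPM in DoxoR 1 to 4, against 25.2, 33.1, 24.6 and 17.6 CPM in CTRL 1 to 4. DoxoR 1, 2 and 3 lay above every CTRL library, and DoxoR 4 was below CTRL 2 only. Its mean was 37.3 ± 5.55 CPM in DoxoR and 25.1 ± 6.34 CPM in CTRL bones (SD, n = 4 each). Ly6a had a log2 fold change of 0.57 ± 0.19 (SE; 95% interval 0.16 to 0.99), a fold of 1.49, with an unadjusted p of 0.0122 and an adjusted p of 0.855 in edgeR. Without CTRL 3 and DoxoR 1 the unadjusted p was 0.0508, and with the megakaryocyte covariate the log2 fold change was 0.32 with an unadjusted p of 0.305.

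Reads can be shared between Ly6a and its neighbours. Of the 50-base words in Ly6a transcripts, 19.0% also occur in other genes, among them Ly6c1 and Ly6i, against 0% to 2.37% for the other 9 genes. The longest stretch shared by the coding sequences of a Ly6a and a Ly6c1 transcript is 48 bases (GENCODE M21, GRCm38, chromosome 15), at coding bases 337 to 384 of Ly6a and 328 to 375 of Ly6c1. It is shown, all in lower case, because reads that start and end within it cannot be placed in 1 of the 2 genes. Only reads of 48 bases or fewer can do so. At 48 bases it is shorter than a 50-base word, so it holds none of the shared words counted above. Only coding sequences were searched for it.
Ly6a and Ly6c1: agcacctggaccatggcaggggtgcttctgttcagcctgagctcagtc
Ly6c1, which is expressed in part of the vessel lining, measured 40.5, 37.5, 41.3 and 34.6 CPM in DoxoR 1 to 4, against 25.8, 31.4, 21.8 and 20.5 CPM in CTRL 1 to 4. Every DoxoR library was above every CTRL library. Its log2 fold change was 0.63 ± 0.14 (SE), with an unadjusted p of 0.00144 and an adjusted p of 0.703 in edgeR. The 2 genes had nearly the same values in most libraries, and how far shared reads add to that was not tested.

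Genes of interferon response and of fibroblasts, 2 settings in which Ly6a is expressed, lay mostly above 0, beside 57.2% of all tested genes. All 12 interferon response genes were above 0, with a median log2 fold change of 0.32 and sums of 447 to 765 CPM in DoxoR and 402 to 513 CPM in CTRL bones. The highest sum was that of DoxoR 3 alone, and the other 3 DoxoR libraries lay within the CTRL range. Among fibroblast genes of the periosteum and sheaths, 12 of 14 were above 0, with a median of 0.29 and sums of 1371 to 2931 CPM in DoxoR and 1520 to 1962 CPM in CTRL bones. DoxoR 1 and 2 were above all CTRL libraries in that sum, and DoxoR 3 and 4 below them. Cd34, a surface marker of progenitor cells, vessels and fibroblasts, was at 37.7 ± 5.33 CPM in DoxoR and 30.2 ± 1.74 CPM in CTRL bones (SD, n = 4 each), a log2 fold change of 0.32 ± 0.12 (SE) with groups apart. Of the 13 endothelial genes, 7 were above and 6 below 0. The part of these cells and of interferon in the Ly6a values was not tested, and Ly6a followed none of these lists closely between mice (group-centred r = 0.52 for interferon response, 0.09 for fibroblasts and −0.67 for endothelial cells).

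Nes encodes nestin, an intermediate filament protein of perivascular progenitors, vessel walls and developing or regenerating muscle. Nes (chr3:87971078-87980451, plus strand) measured 25.2, 19.9, 14.1 and 19.9 CPM in DoxoR 1 to 4, against 22.7, 25.8, 9.17 and 18.8 CPM in CTRL 1 to 4. CTRL 3 was the lowest library, DoxoR 3 the next lowest, and the other 6 libraries overlapped. The log2 fold change was 0.05 ± 0.29 (SE; 95% interval −0.60 to 0.70), with an adjusted p of 0.970 in edgeR. Skeletal muscle genes moved with it: their sums were 16449 to 41541 CPM in DoxoR and 5127 to 29158 CPM in CTRL bones. All 13 lay above 0, beside 57.2% of all tested genes. CTRL 3 had the lowest sum, while CTRL 1, 2 and 4, at 27775, 29158 and 26088 CPM, lay within the DoxoR range. The count of 13 was not taken without CTRL 3. Nes followed the muscle genes between mice (group-centred r = 0.93, and 0.74 without CTRL 3). Without CTRL 3 the log2 fold change of Nes was −0.22, and with the muscle list as a covariate it was −0.17.

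Per kilobase of exon, the mean level over the 8 libraries was highest for Vcam1 (39.9 CPM per kb), followed by Kitl (27.0), Ly6a (25.9), Lepr (25.9), Angpt1 (14.9), Pdgfrb (8.66), Pdgfra (7.02), Ebf3 (4.77), Nes (3.03) and Foxc1 (2.85). The ranges of all neighbours in this order overlapped. Within a library, however, Vcam1 was above Kitl, Lepr above Angpt1 and Angpt1 above Pdgfrb in all 8. Kitl, Ly6a and Lepr had no fixed order, with Kitl above Ly6a and Ly6a above Lepr in 4 of 8 libraries each, and Nes was above Foxc1 in 3 of 8. Vcam1 lay above 95.7% of tested genes by this measure and Foxc1 above 46.8%. With the length of the longest transcript in place of all exons, 5 of the 10 genes held their place in the order, and Lepr came before Ly6a and Kitl.

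**Figure D4:**
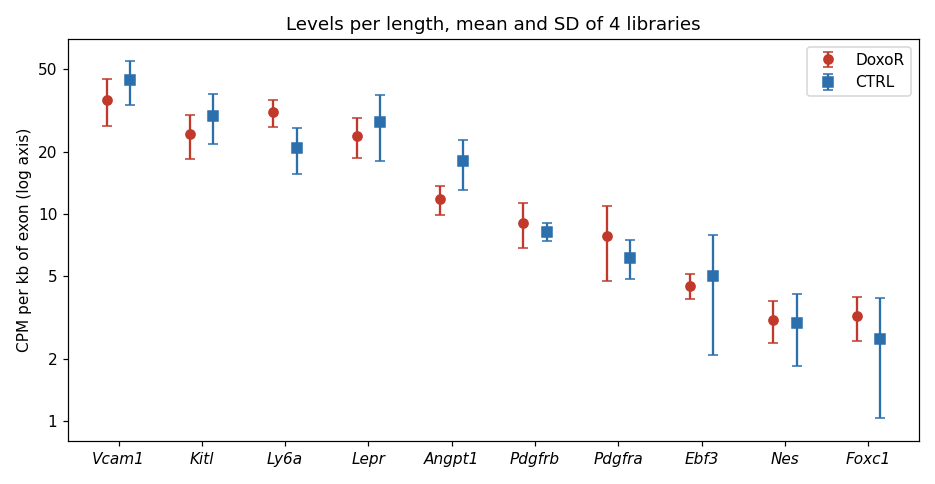
Level per kilobase of exon (TMM-scaled CPM per kb, log axis) of the 10 genes in order of their mean, DoxoR left and CTRL right of each pair, as mean and SD of 4 mice. The levels run from 39.9 for Vcam1 to 2.85 for Foxc1, averaged over 8 libraries.

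Correlations among the 10 genes were taken across all 8 libraries with group means left in, so a difference between groups can add to or take from them. Of the 45 pairs, 0 had an adjusted p under 0.05 in an exact permutation test over 40320 arrangements, and 7 had an unadjusted p under 0.05. Ebf3 and Foxc1 had the highest Pearson r, while the highest rho was that of Lepr and Kitl. For Ebf3 and Foxc1, r was 0.87 (exact permutation p = 0.00186, adjusted p = 0.0837) and Spearman rho was 0.90 (exact permutation p = 0.00456, adjusted p = 0.103). Their r was 0.77 without CTRL 2 and CTRL 3, the libraries farthest from the Ebf3 median. The other 6 of these pairs lay among Lepr, Kitl, Angpt1 and Vcam1, which made up all pairs of those 4 genes. For Lepr and Kitl, r was 0.82 (exact permutation p = 0.0122, adjusted p = 0.109) and rho was 0.93 (exact permutation p = 0.00223, adjusted p = 0.1004). For Lepr and Vcam1, r was 0.87 (exact permutation p = 0.00593, adjusted p = 0.0988) and rho was 0.69 (exact permutation p = 0.0694, adjusted p = 0.347). Without DoxoR 2 and CTRL 3, r was 0.37 for Lepr and Kitl and 0.29 for Lepr and Vcam1, so both relations rest on those libraries. For Kitl and Vcam1, r was 0.80 (exact permutation p = 0.00734, adjusted p = 0.0988), rho was 0.69 (exact permutation p = 0.0694, adjusted p = 0.347), and r was 0.73 without DoxoR 3 and CTRL 3. For Kitl and Angpt1, r was 0.87 (exact permutation p = 0.00878, adjusted p = 0.0988) and rho was 0.74 (exact permutation p = 0.0458, adjusted p = 0.347). For Angpt1 and Vcam1, r was 0.77 (exact permutation p = 0.0278, adjusted p = 0.209) and rho was 0.88 (exact permutation p = 0.00724, adjusted p = 0.109). For Lepr and Angpt1, r was 0.73 (exact permutation p = 0.0403, adjusted p = 0.259) and rho was 0.71 (exact permutation p = 0.0576, adjusted p = 0.347). Without the 2 libraries farthest from the median of the first gene, r was 0.35 for Kitl and Angpt1, 0.40 for Angpt1 and Vcam1 and 0.57 for Lepr and Angpt1. The members of this block followed the reticular list between mice of 1 group, with group-centred r of 0.90 for Lepr, 0.87 for Kitl, 0.92 for Vcam1 and 0.72 for Angpt1. Without CTRL 3 it was 0.83 for Lepr, 0.76 for Kitl, 0.85 for Vcam1 and 0.49 for Angpt1. Genes outside the block followed that list too, with 0.80 for Foxc1, 0.68 for Ebf3 and 0.64 for Pdgfrb. Without CTRL 3 it was 0.67 for Foxc1, 0.49 for Ebf3 and 0.91 for Pdgfrb.

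**Figure D5:**
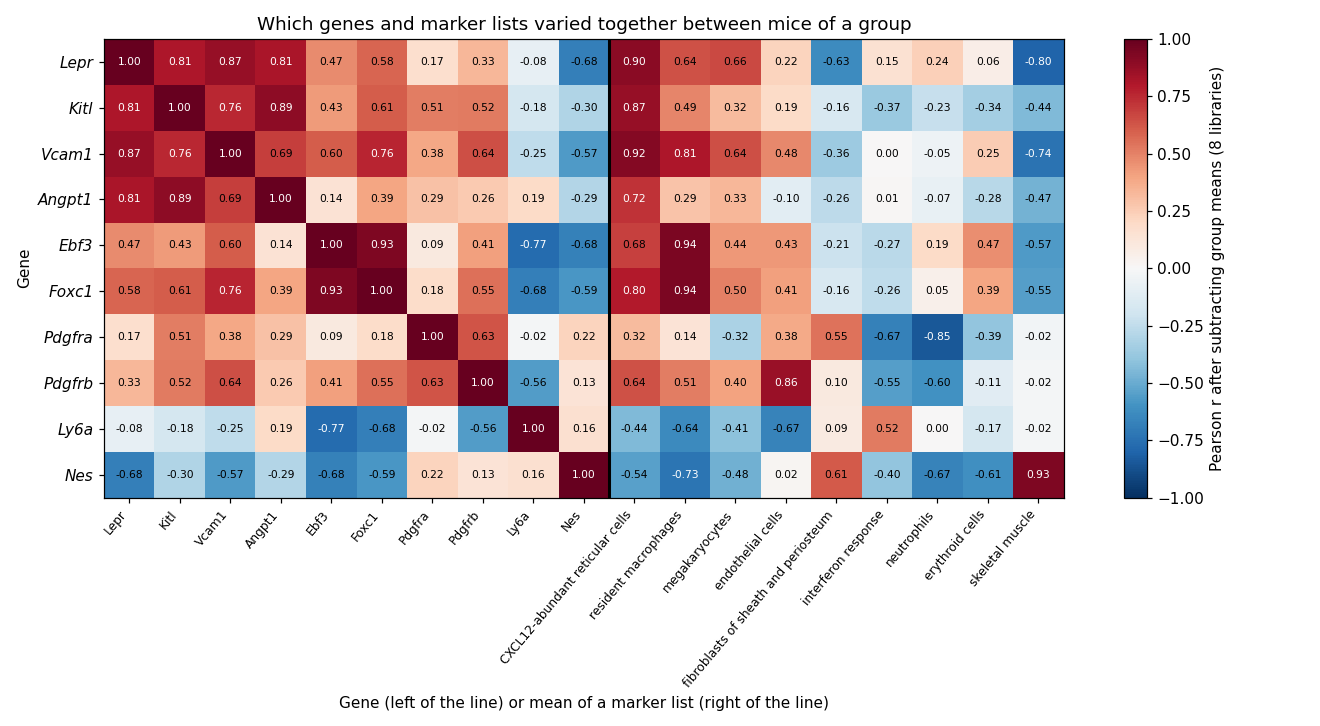
Group-centred Pearson r over 8 libraries of each of the 10 genes (down the page). Across are the same 10 genes (left of the line) and the mean log2 CPM of 9 gene lists (right of the line). Among the lists, Lepr, Kitl and Vcam1 are highest for the reticular list, Ebf3 and Foxc1 for resident macrophages, Nes for skeletal muscle and Pdgfrb for endothelial cells.

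Receptors, ligands and other partners of the 10 proteins were read from a list of 18 genes, of which 12 lay above and 6 below 0, with a median log2 fold change of 0.04. Of these, 0 were higher and 2 were lower at an unadjusted p under 0.05, beside 2.13% of all tested genes higher and 3.23% lower. Jak2, the kinase that acts below the leptin and many cytokine receptors, measured 96.6, 94.8, 94.8 and 95.6 CPM in DoxoR 1 to 4, against 124, 141, 122 and 103 CPM in CTRL 1 to 4. The DoxoR libraries were almost equal and all below the CTRL libraries. The log2 fold change of Jak2 was −0.36 ± 0.11 (SE), with an unadjusted p of 0.00971 and an adjusted p of 0.825 in edgeR. Itga4, the integrin subunit that binds VCAM1, was at 135 ± 23.6 CPM in DoxoR and 169.8 ± 9.39 CPM in CTRL bones (SD, n = 4 each), a log2 fold change of −0.33 ± 0.14 (SE) with an unadjusted p of 0.0345 in edgeR. Both genes are also expressed in blood cells. Kit, the receptor of stem cell factor, was at 17.3 ± 3.93 CPM in DoxoR and 15.9 ± 2.81 CPM in CTRL bones, and Tek, the receptor of angiopoietin-1, at 19.2 ± 2.10 CPM in DoxoR and 17.9 ± 1.43 CPM in CTRL bones (SD, n = 4 each). Angpt2, the antagonist ligand of TEK, had a log2 fold change of −0.21 ± 0.17 (SE).

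Of the other stromal lists, some were mixed in direction and others lay mostly above 0, beside 57.2% of all tested genes. Of the 18 reticular cell genes, 8 lay above and 10 below 0, with a median log2 fold change of −0.01. Grem1, a BMP antagonist of skeletal progenitors, measured 49.5 ± 11.96 CPM in DoxoR and 70.2 ± 17.0 CPM in CTRL bones (SD, n = 4 each), a log2 fold change of −0.50 ± 0.21 (SE) with an unadjusted p of 0.0381 in edgeR. Mesenchymal progenitor genes were above 0 for 11 of 17 tested, with a median of 0.21. Twist2 and Msx1, transcription factor genes of the mesenchyme, had log2 fold changes of 0.76 ± 0.31 for Twist2 and 0.78 ± 0.33 for Msx1 (SE), with unadjusted p of 0.0341 for Twist2 and 0.0376 for Msx1 in edgeR. Both were low: Twist2 was at 0.666 ± 0.151 CPM in DoxoR and 0.384 ± 0.121 CPM in CTRL bones, and Msx1 at 1.94 ± 0.168 CPM in DoxoR and 1.11 ± 0.511 CPM in CTRL bones (SD, n = 4 each), with groups apart for Msx1. Prrx1, a transcription factor of limb mesenchyme, had a log2 fold change of 0.34 ± 0.16 (SE) and an unadjusted p of 0.0599 in edgeR. Pericyte and smooth muscle genes were above 0 for 11 of 12, with a median of 0.18, and other niche factors for 10 of 19, with a median of 0.02. Osteoblast genes were above 0 for 11 of 12, with a median of 0.34, and adipocyte genes for all 8 tested, with a median of 0.96. At an unadjusted p under 0.05 in edgeR, 2 osteoblast and 4 adipocyte genes were higher, beside 2.13% of all tested genes, and 0 passed adjustment. The adipocyte sums overlapped, at 242 to 444 CPM in DoxoR and 274 to 356 CPM in CTRL bones. All 18 reticular genes and all but 1 of the 18 progenitor genes passed the filter on low counts.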

How the data were processed

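The authors deposited 1 table of counts per gene, whose unit was taken to be expected counts because the submitters' processing notes name STAR 2.5.3a and RSEM 1.3.0, a tool that estimates them. All deposited values were whole numbers, so rounding changed nothing. The same notes name the human build GRCh38, while the gene identifiers are those of mouse. Which annotation was used, and whether strand and molecular identifiers were, is not stated in the labels. Per the labels' protocols, libraries were stranded, poly-A selected from 500 ng of RNA and amplified over 15 cycles, 1 per mouse.

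Genes passing edgeR's filterByExpr (minimum count 10, minimum total 15) were TMM-scaled and tested with edgeR's two-sided robust quasi-likelihood test (edgeR 4.0.16, R 4.3.3), with Benjamini-Hochberg adjustment over 17035 genes and no covariate. The fit was tested on simulated data. The 10 genes and 24 gene lists were chosen with earlier results of these data known. The rule for naming genes took the 10, all tested partners, up to 3 genes of smallest p per list and the 3 nearest to each of the 10, of which the text gives a part. Others are said to have been chosen after their values were seen. Likeness is Pearson r of log2 CPM (prior count 2) after subtracting group means. Levels per length used exon lengths of GENCODE M21.

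Alternatives were DESeq2 1.42.0, limma-voom (limma 3.58.1), other scalings and filters, the replicate number as a block, marrow and muscle covariates, and each library left out. A megakaryocyte covariate, DESeq2 without the filter, and leaving out CTRL 3 with DoxoR 1 were added after seeing the data.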

Additional observations from a re-analysis of the deposited data

Results flagged for a closer look

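In 4 of 56 groups of 4 libraries (the 10 genes and their 18 partners, 2 groups each), 1 library lay apart from the other 3 by Dixon's criterion. Chance gives about 1 in 20. Lepr was at 299.6 CPM in CTRL 3 (next 176), and Kitl was at 248 CPM in the same library (next 162). Angptl1, an angiopoietin-like gene, was at 4.67 CPM in CTRL 3 (next 3.54). Vcam1 was at 436 CPM in DoxoR 2 (next 280.2).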

How the results depend on the processing

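No alternative brought any of the 10 genes past an adjusted p of 0.05 (0 in all), and Angpt1, Ly6a, Kitl, Pdgfra and Foxc1 kept their sign in all 20 alternatives. Over these, the log2 fold change of Angpt1 lay between −0.72 and −0.37 (unadjusted p 0.00434 to 0.265, adjusted p 0.368 to 1.00) and that of Ly6a between 0.32 and 0.71 (0.00257 to 0.305, adjusted p 0.449 to 1.00). With the megakaryocyte covariate, added after seeing the data, 0 of the 10 genes and 551 of all genes had an unadjusted p under 0.05, and Lepr was at 0.35, Ebf3 at 0.57, Vcam1 at 0.15 and Nes at −0.41; list and treatment are nearly the same contrast there. Over all genes, DESeq2 called 29 (31 without the filter, with 10667 adjusted p undefined), edgeR without the filter 1, and the other edgeR and limma-voom fits 0. With 1 library left out, 621 to 1784 genes (1784 without CTRL 4) and 2 to 3 of the 10 had an unadjusted p under 0.05, the third being Vcam1 without DoxoR 2, and 0 genes passed adjustment. Without CTRL 3 and DoxoR 1, also chosen later, 1 of the 10 (Angpt1, p 0.0452, adjusted p 0.983 in edgeR) and 780 of all genes had an unadjusted p under 0.05, and Lepr was at 0.15, Ebf3 at 0.20 and Nes at −0.32. With the muscle covariate Lepr was at 0.025, Ebf3 at 0.14 and Nes at −0.17, with the marrow covariate Ebf3 at 0.15 and Nes at −0.14, and in limma-voom Ebf3 at 0.054. With 1 library left out, log2 fold changes ran from −0.40 to 0.023 for Lepr, −0.44 to 0.11 for Ebf3, −0.22 to 0.21 for Nes and −0.062 to 0.23 for Pdgfrb; Lepr was at 0.023 without CTRL 3, Ebf3 at 0.11 without CTRL 3 and 0.059 without CTRL 4, Nes at −0.22 without CTRL 3 and −0.11 without DoxoR 1, and Pdgfrb at −0.062 without DoxoR 2. With library size as the only scaling, 1 of the 10 had groups apart (2.62% of all genes), against 0 with TMM (3.59%), and the longest transcript kept 5 places in the order of levels. The median of all genes was 0.04 with TMM, −0.02 with library size and 0.02 with DESeq2 factors. Replicate numbers are not said to pair the mice. Same-numbered libraries correlated between −0.27 and 0.43, and 2 of 4 correlated best with their own number, which cannot settle whether they do. With the replicate block 1466 genes (913 without it) and 2 of the 10 had an unadjusted p under 0.05 in edgeR, and Ebf3 was at 0.042. The cause of these shifts was not tested.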
